A study of Mus musculus with 8 samples.

Results

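Regulators of blood coagulation and of fibrinolysis were examined in whole mouse lung after exposure to ozone, on Affymetrix oligonucleotide arrays. The 9 genes of interest were F3, Plat, Plau, Plaur, Serpine2, Thbd, Procr, Tfpi and F13a1, and their members were all probe sets whose platform annotation names 1 of these genes alone. Such probe sets exist for 7 of the 9 genes, 8 probe sets among 12422 that are not controls. Thbd has 2 of them, 104601_at and 162023_f_at, and each of the other 6 genes has 1. No probe set is annotated with Serpine2 or F13a1 alone, and these 2 genes were not analysed here. All 8 probe sets lay above the intensity floor on all 8 arrays and were among the 10953 that were tested.

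The 4 groups had 2 arrays each, named 1a and 1b: C3H-HeOuJ mice in ozone, C3H-HeOuJ mice in filtered air, C3H-HeJ mice in ozone and C3H-HeJ mice in filtered air. C3H-HeJ and C3H-HeOuJ are closely related substrains, and C3H-HeJ carries a missense mutation of Tlr4, the lipopolysaccharide receptor. An exposure of 72 h is given for C3H-HeOuJ only, and the labels used here state neither the ozone concentration nor the age or sex of the mice. They also do not say whether 1a and 1b are separate animals, pools or repeated hybridisations, so each p-value measures only the spread between arrays, which may be technical. Values are scaled fluorescence intensities of a probe set, which can be compared between arrays but not between probe sets.

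Coagulation starts when tissue factor, the product of F3, binds factor VII on a cell surface, and the cascade ends in thrombin, which cleaves fibrinogen to fibrin. Several brakes act on it at the vessel wall: tissue factor pathway inhibitor (Tfpi) blocks the first complex, thrombomodulin (Thbd) turns thrombin into an activator of protein C, and the endothelial protein C receptor (Procr) presents protein C to that complex. Fibrin is dissolved by plasmin, made from plasminogen by the tissue-type activator (Plat) and by the urokinase-type activator (Plau), which works at the cell surface when bound to its receptor (Plaur). In lung, tissue factor is found on alveolar epithelium and macrophages, thrombomodulin is abundant on the capillary endothelium, and fibrin is known to form in the airspaces after many kinds of injury.

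The sequences before the starts of F3 and Procr are shown because, of the 7 genes, F3 had the smallest p for the substrain difference in ozone and Procr for the mean ozone effect. They are the 250 bases upstream of the annotated start, taken from RefSeq on build GRCm38.p6, both on the plus strand, and run 5′ to 3′. The F3 window is chr3:121723287-121723536 and the Procr window is chr2:155750967-155751216. Capitals mark matches on either strand to the AP-1 motif TGANTCA or to the GC box GGGCGG.
F3 promoter: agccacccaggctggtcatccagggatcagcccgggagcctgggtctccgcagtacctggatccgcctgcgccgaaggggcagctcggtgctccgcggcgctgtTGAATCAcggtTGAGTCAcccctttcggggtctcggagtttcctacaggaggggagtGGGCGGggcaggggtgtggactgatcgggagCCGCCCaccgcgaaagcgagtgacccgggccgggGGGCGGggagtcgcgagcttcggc
Procr promoter: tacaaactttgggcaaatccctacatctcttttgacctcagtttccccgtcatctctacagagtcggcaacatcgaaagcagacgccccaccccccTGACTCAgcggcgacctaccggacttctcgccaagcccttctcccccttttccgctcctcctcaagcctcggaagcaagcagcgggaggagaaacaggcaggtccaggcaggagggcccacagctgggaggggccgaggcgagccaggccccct
The F3 window holds 2 AP-1 matches, at 146 to 140 and at 135 to 129 bases before the start. It also holds 3 GC boxes, which start 89, 58 and 24 bases before it. The Procr window holds 1 AP-1 match, at 154 to 148 bases before the start, and no GC box. Over 32851 windows of the same length, 6.75% held at least 1 AP-1 match and 0.338% at least 2, while 32.7% held at least 1 GC box and 8.47% at least 3. Neither window held an exact match to the EGR motif GCGNGGGCG, the TATA box TATAAA, the CRE motif TGACGTCA or the NF-kB motif GGGRNNYYCC. Of all windows, 4.7%, 12.4%, 1.55% and 7.25% held them. R stands for A or G, Y for C or T and N for any base. Sites that depart from these letters were not sought, so their absence is not shown. The EGR motif can overlap a GC box. Windows were also at hand for Plaur, with 1 AP-1 match, 3 GC boxes and 1 EGR match that overlaps them, and for 2 starts of Tfpi, with 1 GC box each, 1 TATA box in all and no AP-1 match. A match describes letters and is not evidence of binding, and the motifs were chosen after the values had been seen.

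The arrays of C3H-HeOuJ in ozone stood apart from the rest in a measure of RNA quality, in the direction of less 5′ signal loss. The actin control probe sets gave a 5′/3′ signal ratio of 0.766 and 0.756 on these 2 arrays, against 0.432 to 0.603 on the other 6, and for Gapdh it was 1.34 and 1.18, against 0.775 to 1.06. The Spearman correlation between the 2 arrays of that group was 0.936, against 0.957 to 0.965 in the other groups. Median intensities were between 351 and 386 on all 8 arrays, and between 17.7% and 21.1% of probe sets lay below the floor. Markers of lung were far above the floor on all 8 arrays, with surfactant protein C (Sftpc) at 39537 to 100639.5, the club cell protein Scgb1a1 at 40169 to 68065 and the alveolar type 1 marker Ager at 28974 to 39869.

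Tissue factor was the only member that differed between groups after adjustment. F3 (97689_at) was higher in C3H-HeOuJ lungs in ozone than in C3H-HeJ lungs in ozone, by 1.93-fold. Its intensity was 2016 and 2144 on the C3H-HeOuJ ozone arrays and 1486 and 1341 on the C3H-HeOuJ air arrays. In C3H-HeJ it was 959 and 1214 in ozone, against 1406 and 1280 in air. The highest arrays were thus the pair from C3H-HeOuJ in ozone, the lowest were the pair from C3H-HeJ in ozone, and the air arrays of both substrains lay between and overlapped. As group means, F3 was 2080 ± 90.6 in C3H-HeOuJ in ozone, 1413 ± 103 in C3H-HeOuJ in air, 1086 ± 181 in C3H-HeJ in ozone and 1343 ± 89.5 in C3H-HeJ in air (SD, n = 2 arrays each).

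In ozone, the log2 difference of F3 between C3H-HeOuJ and C3H-HeJ was 0.95 (SE 0.16, 95% interval 0.58 to 1.31, limma, adjusted p = 0.0479). In this comparison 107 probe sets, 0.977% of all tested, passed the adjusted threshold of 0.05, 38 of them higher in C3H-HeOuJ (0.347%), and F3 was number 65 by p. The call did not withstand several other treatments of the same values. Median centring of the arrays gave an adjusted p of 0.0568, and each fit that left out 1 of the 8 arrays gave one between 0.0648 and 0.233, with log2 differences of 0.78 to 1.12. With the mean log2 5′/3′ ratio of actin and Gapdh as a covariate, the difference was 0.74 (SE 0.52, adjusted p = 0.983). This ratio, below called the 5′/3′ covariate, was higher on both C3H-HeOuJ ozone arrays than on all others. The fit therefore cannot fully separate it from that group. In air, the log2 difference between the substrains was 0.07 (SE 0.16, adjusted p = 1), with overlapping arrays.

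Within C3H-HeOuJ, the log2 difference of F3 between ozone and air was 0.56 (SE 0.16, 95% interval 0.19 to 0.93, limma, adjusted p = 0.162). Within C3H-HeJ it was -0.31 (SE 0.16, 95% interval -0.68 to 0.05, limma, adjusted p = 1). Ozone and air arrays did not overlap in either substrain, in opposite directions. Such an opposite pattern was seen in 8.11% of all probe sets tested, and higher in C3H-HeOuJ with lower in C3H-HeJ in 3.52%. The test of the difference between these 2 effects gave a log2 value of 0.87 (SE 0.23, 95% interval 0.35 to 1.39), an unadjusted p of 0.00445 and an adjusted p of 0.236 in limma, so it did not pass. With the 5′/3′ covariate the difference was 0.77 (SE 0.35, adjusted p = 0.847).

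**Figure D1:**
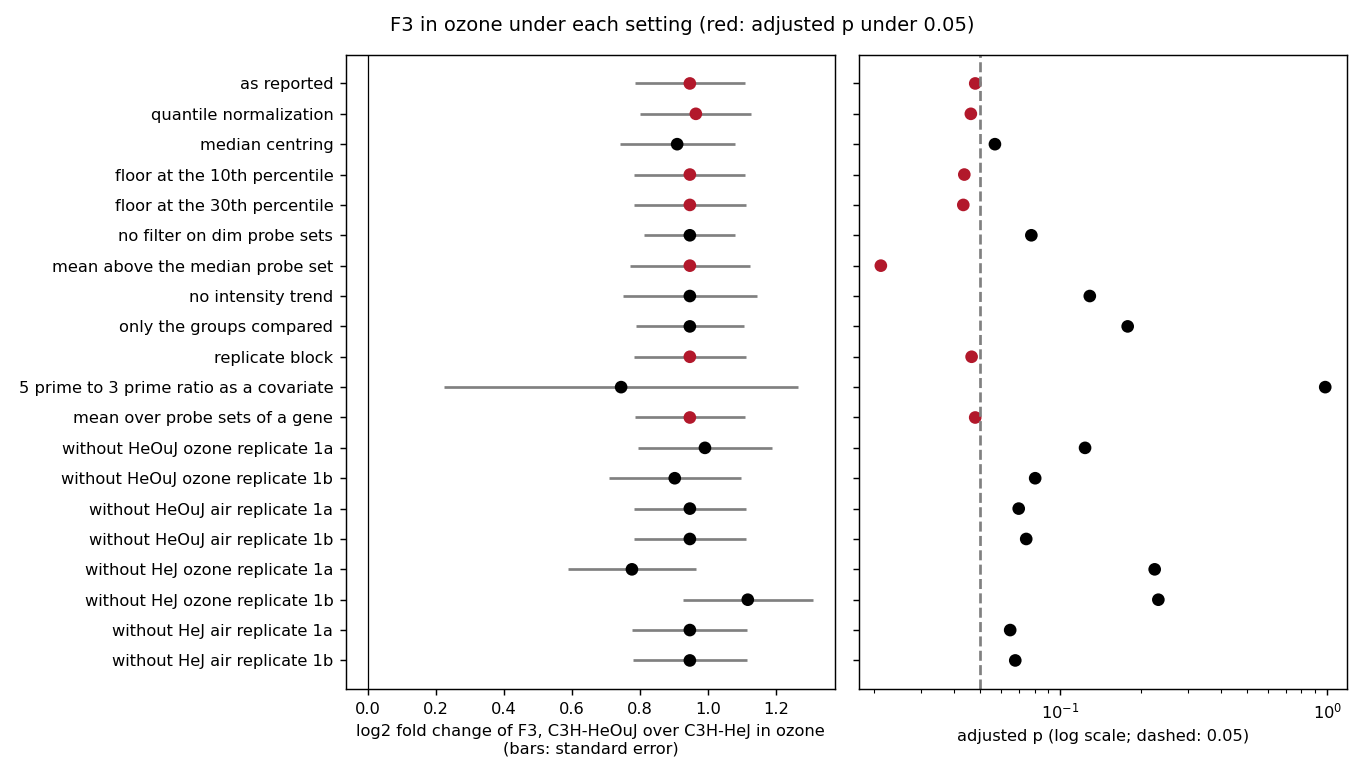
Left, the log2 difference of F3 between C3H-HeOuJ and C3H-HeJ in ozone under each way of treating the values, with bars for the standard error. Right, its adjusted p on a log axis with a dashed line at 0.05, red where it is under that line. Every estimate lies above 0, between 0.74 with the 5′/3′ covariate and 1.12 without 1 of the C3H-HeJ ozone arrays. The adjusted p falls on either side of the line.

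Markers of some lung cell types, among them cells that can carry tissue factor, were summed on the same arrays. Bright probe sets weigh most in such a sum. The summed intensity of the 3 alveolar type 2 genes measured, of 6 listed, was 130117 and 122434 in C3H-HeOuJ in ozone, 94203 and 75186 in C3H-HeOuJ in air, 87491 and 80843 in C3H-HeJ in ozone and 98693 and 82205 in C3H-HeJ in air. This sum was highest on the 2 arrays where F3 was highest, and most of it was Sftpc, whose log2 difference was 0.92 for ozone in C3H-HeOuJ and 0.89 between substrains in ozone. In the same comparisons Sftpb differed by -0.19 and -0.23, Napsa differed by 0.15 and 0.29, and none of the 3 was called. The 4 measured alveolar type 1 genes summed to 72580 and 76396 in C3H-HeOuJ in ozone, 64756 and 65871 in C3H-HeOuJ in air, 70821 and 61450 in C3H-HeJ in ozone and 78660 and 69896 in C3H-HeJ in air, with the highest value on a C3H-HeJ air array. Macrophage and monocyte markers, 13 of 14 genes measured and Marco below the floor on all 8 arrays, summed to 44709 and 40601 in C3H-HeOuJ in ozone, 39801 and 31991 in C3H-HeOuJ in air, 31995 and 26746 in C3H-HeJ in ozone and 36073 and 31388 in C3H-HeJ in air. This sum was also highest in C3H-HeOuJ in ozone, but its members did not move together. For ozone in C3H-HeOuJ, 8 of 14 probe sets were higher and 6 lower (median 0.05), and the 1 called, Chil3, a chitinase-like product of airspace macrophages, was lower (log2 -1.19, limma, adjusted p = 0.0464). In that comparison 51.9% of all probe sets tested were higher and 0.456% were called. Between substrains in ozone, 8 of the 14 were higher and 6 lower (median 0.13), and the lysosomal marker Cd68 was called higher (log2 1.29, limma, adjusted p = 0.0329). There 52.1% of all probe sets tested were higher and 0.977% were called. Markers of B and plasma cells summed to 10580 and 13527 in C3H-HeOuJ in ozone, 11708 and 11875 in C3H-HeOuJ in air, 8977 and 8197 in C3H-HeJ in ozone and 15004 and 15707 in C3H-HeJ in air. They were thus highest in C3H-HeJ in air, where F3 was intermediate. Between substrains in ozone, 20 of their 23 probe sets were higher in C3H-HeOuJ, where 52.1% of all probe sets were, and 2 were called higher, where 0.347% of all were. Fibroblast markers, all 7 genes measured, summed to 20479 and 20930 in C3H-HeOuJ in ozone, against 23565 to 28298 on the other arrays. Of their 13 probe sets, 6 were higher and 7 lower for ozone in C3H-HeOuJ. Between substrains in ozone, 4 were higher and 9 lower, and none was called in either comparison. Smooth muscle markers of 6 genes summed to between 7976 and 10872. Club cell markers, 3 of 5 genes measured, summed to 115774 and 113556 in C3H-HeOuJ in ozone, against 77234 to 111736 on the other arrays. All 3 of their probe sets were higher for ozone in C3H-HeOuJ and between substrains in ozone, none called. Erythroid markers summed to 76573 and 54554, against 35041 to 47984. Of their 4 probe sets, 2 were higher for ozone in C3H-HeOuJ and 1 between substrains in ozone. The part of all these cells in the F3 difference was not tested. In whole lung, fewer cells of a type and less RNA per cell cannot be told apart.

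The anticoagulant members showed no difference that passed adjustment. Procr (98018_at), the protein C receptor, was 1149 and 928 in C3H-HeOuJ in ozone and 731 and 695 in C3H-HeOuJ in air. The C3H-HeJ arrays read 819 and 868 in ozone, against 805 and 683 in air. All 4 ozone arrays were above all 4 air arrays, which held for 2.01% of all probe sets tested. The mean log2 effect of ozone over both substrains was 0.36 (SE 0.13, 95% interval 0.05 to 0.67, limma, unadjusted p = 0.0268, adjusted p = 0.470). By substrain it was 0.53 in C3H-HeOuJ (SE 0.19, adjusted p = 0.236) and 0.18 in C3H-HeJ (SE 0.19, adjusted p = 1), and the test of the difference between them gave 0.35 (SE 0.27, 95% interval -0.26 to 0.96, adjusted p = 0.685). With the 5′/3′ covariate the effect in C3H-HeOuJ was 0.11 (SE 0.39).

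Thrombomodulin was read by 2 probe sets that did not follow each other. On 104601_at, Thbd was 2607 and 2240 in C3H-HeOuJ in ozone and 2308 and 3331 in C3H-HeOuJ in air. In C3H-HeJ this probe set read 2272 and 2399 in ozone, against 2169 and 2563 in air. On 162023_f_at, Thbd was 1266 and 1212 in C3H-HeOuJ in ozone and 982 and 851 in C3H-HeOuJ in air. There C3H-HeJ had 997 and 827 in ozone, against 951 and 1045 in air. The letter f in the second name marks a probe set that its maker did not regard as unique to 1 transcript. The log2 effect of ozone in C3H-HeOuJ was -0.20 on the first (SE 0.19, limma, adjusted p = 0.657) and 0.44 on the second (SE 0.17, limma, adjusted p = 0.274). Averaged over both probe sets, it was 0.12 in C3H-HeOuJ (SE 0.14) and -0.07 in C3H-HeJ (SE 0.14), so no direction can be given for the gene.

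Tissue factor pathway inhibitor was dim and variable. Tfpi (98514_at) was 367 and 166 in C3H-HeOuJ in ozone and 195 and 185 in C3H-HeOuJ in air. Values in C3H-HeJ were 219 and 273 in ozone, against 165 and 196 in air. The log2 effect of ozone was 0.38 in C3H-HeOuJ (SE 0.44, limma, adjusted p = 0.722) and 0.44 in C3H-HeJ (SE 0.44, limma, adjusted p = 1). In C3H-HeOuJ the ozone arrays lay on either side of the air arrays, while in C3H-HeJ both ozone arrays were above the air arrays. The 95% interval of the effect in C3H-HeOuJ was wide, -0.62 to 1.38 on the log2 scale, and leaving out 1 array moved the effect between -0.19 and 0.95.

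Many of the cells that make these inhibitors are endothelial, and their markers were examined beside them. The 10 of 13 endothelial genes that were measured summed to 62211 and 66563 in C3H-HeOuJ in ozone, 68633 and 75978 in C3H-HeOuJ in air, 69815 and 66845 in C3H-HeJ in ozone and 74129 and 68200 in C3H-HeJ in air. In C3H-HeOuJ, 10 of their 13 probe sets were lower in ozone and 3 higher, where 51.9% of all probe sets were higher. Their median log2 difference was -0.48 and none was called, where 0.456% of all were. Procr and the second Thbd probe set thus had their highest values on the arrays where the endothelial sum was lowest. The second of these arrays (66563) was close to a C3H-HeJ ozone array (66845), and bright probe sets weigh most in a sum. Mesothelial markers, also a source of thrombomodulin and protein C receptor, summed to 10312 and 12265 in C3H-HeOuJ in ozone, against 7621 to 9383 on the other 6 arrays. Their probe sets were mixed, with 3 higher and 2 lower for ozone in C3H-HeOuJ (median 0.35) and 2 higher and 3 lower between substrains in ozone (median -0.01), none called. Of all probe sets tested, 52.1% were higher in the latter comparison. The part of these cells in the values of Procr and Thbd was not tested.

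**Figure D2:**
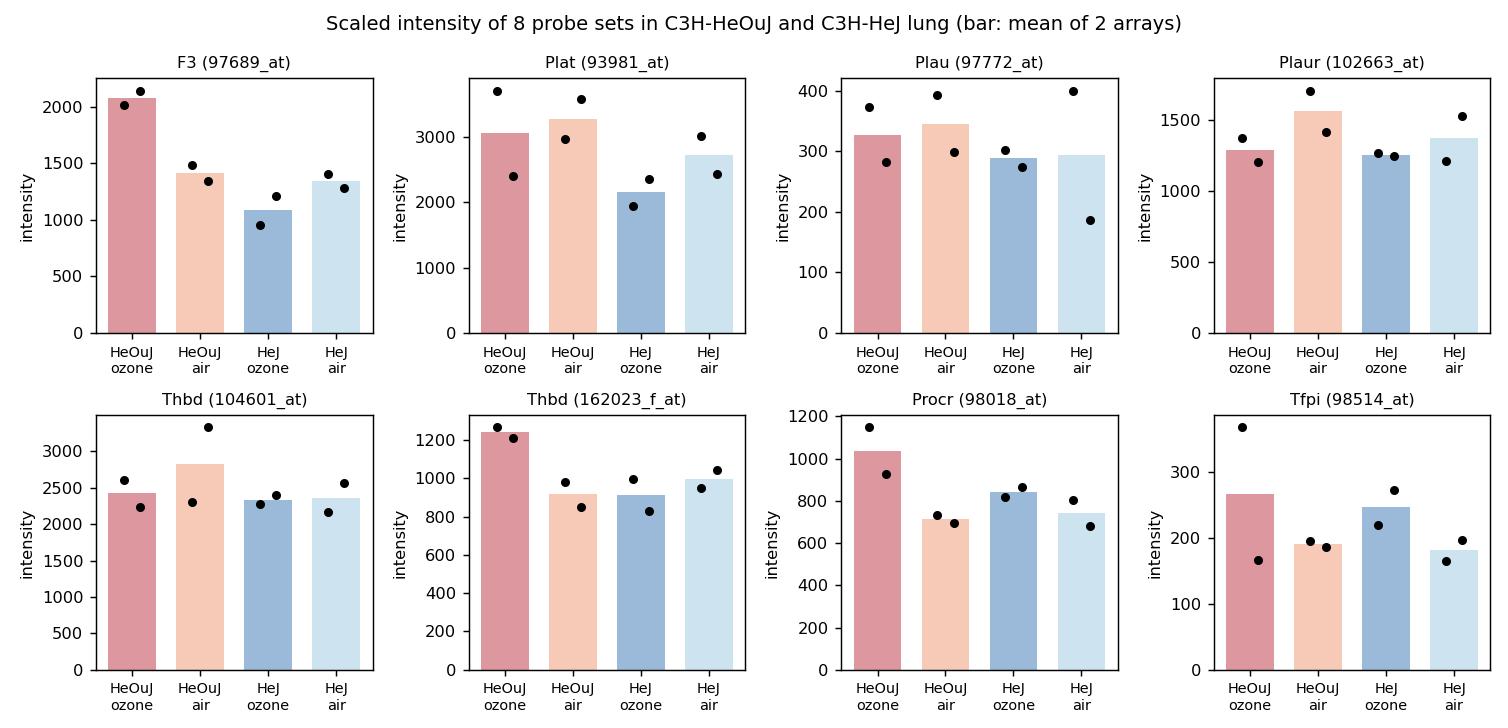
Scaled intensity of the 8 probe sets, with 1 panel per probe set, points for the arrays and bars for the mean of the 2 arrays of each group. F3 is highest on both C3H-HeOuJ ozone arrays and lowest on both C3H-HeJ ozone arrays, and Procr is higher on all 4 ozone arrays than on all 4 air arrays.

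No effect of ozone on the plasminogen activators or their receptor passed adjustment. Plat (93981_at), the tissue-type activator, was 3713 and 2410 in C3H-HeOuJ in ozone and 2975 and 3579 in C3H-HeOuJ in air. In C3H-HeJ it was 1951 and 2355 in ozone, against 3015 and 2432 in air. The C3H-HeJ ozone arrays were the lowest pair, below both air arrays of that substrain. The log2 effect of ozone on Plat was -0.34 in C3H-HeJ (SE 0.22, limma, adjusted p = 1) and -0.13 in C3H-HeOuJ (SE 0.22, limma, adjusted p = 0.831). Between substrains in ozone, Plat differed by 0.48 (SE 0.22, 95% interval -0.03 to 0.99, limma, adjusted p = 0.302), with the C3H-HeOuJ arrays above those of C3H-HeJ. With the 5′/3′ covariate this difference was -0.09 (SE 0.70), on the other side of 0.

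Plau (97772_at), the urokinase-type activator, was 373 and 282 in C3H-HeOuJ in ozone and 392 and 299 in C3H-HeOuJ in air. C3H-HeJ arrays gave 302 and 275 in ozone, against 400 and 187 in air. Arrays of all 4 groups overlapped, and the log2 effect of ozone was -0.08 in C3H-HeOuJ and 0.07 in C3H-HeJ (SE 0.42 each). With the 5′/3′ covariate these values were -1.69 (SE 0.68, adjusted p = 0.913) and -0.21 (SE 0.33, adjusted p = 0.9997). Plaur (102663_at), the urokinase receptor, was 1373 and 1203 in C3H-HeOuJ in ozone and 1704 and 1416 in C3H-HeOuJ in air. C3H-HeJ lungs had 1264 and 1243 in ozone, against 1212 and 1526 in air. Plaur was the steadiest of the 8 probe sets, with a highest array 1.42 times its lowest, against 2.24 times for F3. Its log2 effect of ozone was -0.27 in C3H-HeOuJ (SE 0.17, limma, adjusted p = 0.484), where the ozone arrays lay below the air arrays, and -0.12 in C3H-HeJ (SE 0.17, limma, adjusted p = 1), where they overlapped.

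The members were then counted together against all probe sets tested. For ozone over air in C3H-HeOuJ, 0 of 8 members were called, where 0.456% of all probe sets were, and 3 had an unadjusted p under 0.05 (F3, Procr and 162023_f_at of Thbd), where 15.5% of all did. In that substrain 3 members were higher in ozone without overlap, against 22.3% of all probe sets, and 1, Plaur, was lower, against 19.5%. The median log2 effect was 0.15 over the members and 0.02 over all. For ozone over air in C3H-HeJ, 0 of 8 members and 0% of all probe sets were called, and 0 members had an unadjusted p under 0.05, against 4.35% of all. There 2 members were higher without overlap (Procr and Tfpi, against 18.4% of all) and 2 were lower (F3 and Plat, against 16%), with a median of -0.07 over the members and 0.01 over all.

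For the difference between the 2 ozone effects, 0 of 8 members and 0% of all probe sets were called, and 2 members (F3 and 162023_f_at of Thbd) had an unadjusted p under 0.05, against 11.4% of all. For the mean ozone effect, 0 of 8 members were called, against 0.0183% of all, and Procr alone had an unadjusted p under 0.05, against 9.25%. The 4 ozone comparisons share arrays, so their counts are not separate pieces of evidence.

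Between substrains in air, 0 of 8 members were called, against 0.0456% of all probe sets, none had an unadjusted p under 0.05, against 5.71% of all, and none was without overlap, against 32.7% of all. The largest log2 differences in air were 0.32 for Plau (SE 0.42) and 0.27 for Plat (SE 0.22). In ozone, F3 was the 1 call, and 2 members (F3 and 162023_f_at of Thbd) had an unadjusted p under 0.05, against 18% of all probe sets. There 4 members (F3, Plat, 162023_f_at of Thbd and Procr) were higher in C3H-HeOuJ without overlap, against 24.4% of all. All 8 fitted differences in ozone were above 0, where 52.1% of all were, from 0.02 for Tfpi to 0.95 for F3. Of these, 4 lay beyond 1 SE of 0. Leaving out 1 array brought Plaur and 104601_at of Thbd as low as -0.06, Plau to -0.03 and Tfpi to -0.55. With the 5′/3′ covariate, 4 of the 8 were above 0 and 4 below (Plat, Plau, Procr and Tfpi). That fit cannot fully separate the covariate from the C3H-HeOuJ ozone group, where it was highest. Averaged over both exposures, 0 of 8 members were called, against 0.155% of all, and 2 (F3 and Plat) had an unadjusted p under 0.05, against 13% of all. F3 had a log2 difference of 0.51 (SE 0.11, limma, adjusted p = 0.135).

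**Figure D3:**
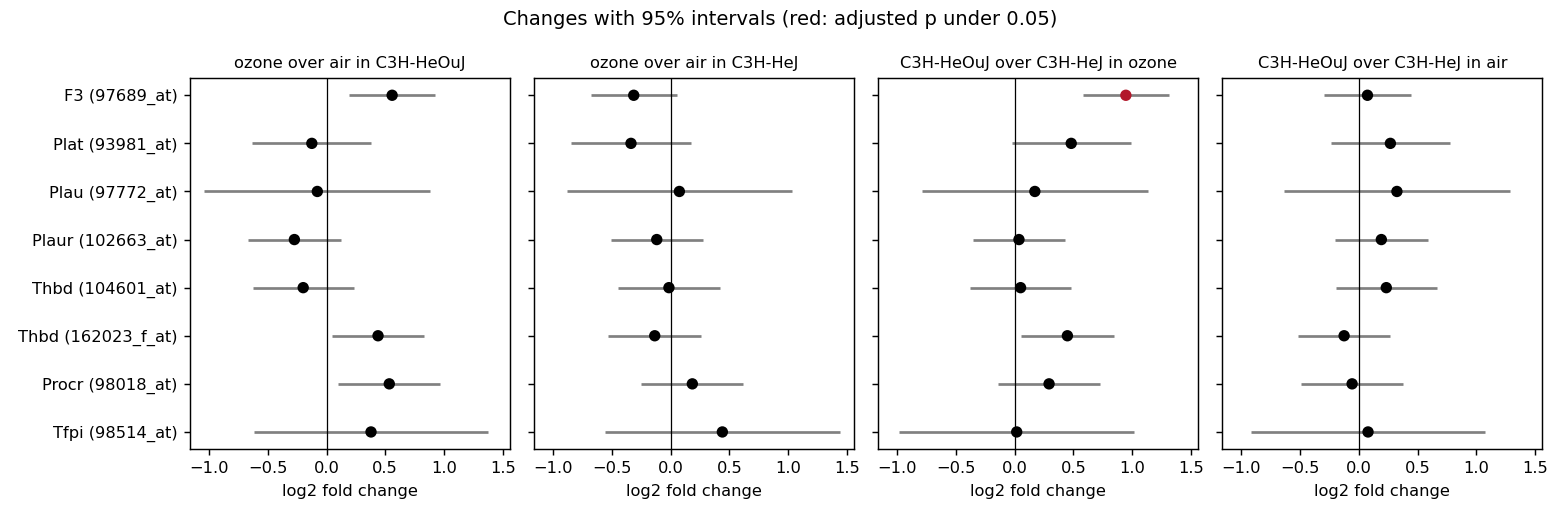
Log2 fold changes of the 8 probe sets with 95% intervals, for ozone over air in each substrain and for C3H-HeOuJ over C3H-HeJ in each exposure, red where the adjusted p is under 0.05. F3 in ozone, with an interval of 0.58 to 1.31, is the 1 red point.

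Patterns over the 8 arrays were compared with those of 7426 probe sets of other genes, as a description. The probe set most like F3 was Rnh1, which encodes the ribonuclease inhibitor (Pearson r = 0.98 of log2 intensity over 8 arrays), followed by Ruvbl1, a chromatin-remodelling ATPase, and Psca, prostate stem cell antigen (r = 0.97 and 0.96). Nearest to Procr were Phf5a, Bud31 and Nucks1 (r = 0.97, 0.97 and 0.96), the first 2 of which encode parts of the splicing machinery. For the others the nearest were Inpp5b for Plat (r = 0.94), Rnf34 for Plau (r = 0.94), Peg3 for Plaur (r = 0.93), Pdgfa for 104601_at and Rfc5 for 162023_f_at of Thbd (r = 0.92 and 0.98), and Slc39a6 for Tfpi (r = 0.96). The members were left out of the probe sets searched, so no member could be among the nearest. Between members, the highest r was 0.71, for F3 with 162023_f_at of Thbd. The nearest probe set had an r between 0.917 and 0.984 for each of the 8, and all these values rest on the same 8 arrays.

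The wider pathway was described with 49 other genes of coagulation and fibrinolysis, of which 43 have probe sets (56 in all) and 34 could be tested on 41 probe sets. None was called in any of the 7 comparisons. In C3H-HeOuJ, 23 of the 41 were higher in ozone and 18 lower, with a median log2 difference of 0.13, and 4 higher and 2 lower had an unadjusted p under 0.05. Of all probe sets tested, 51.9% were higher there, and 7.77% were higher and 7.73% lower at that level. In C3H-HeJ, 22 were higher and 19 lower, with a median of 0.01 and 3 higher and 0 lower at that level, against 53% of all that were higher and 2.36% and 1.99% at that level. Between substrains in ozone, 26 were higher in C3H-HeOuJ and 15 lower, with a median of 0.22, and 7 higher and 3 lower had an unadjusted p under 0.05. Of all probe sets, 52.1% were higher in that comparison, and 9.11% were higher and 8.9% lower at that level.

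Of the procoagulant factors, Kng1, which encodes the kininogen of the contact pathway, had the smallest p for ozone. It was 398 and 337 in C3H-HeOuJ in ozone and 145 and 78.1 in C3H-HeOuJ in air. In C3H-HeJ it was 221 and 218 in ozone, against 52.2 and 96.1 in air, the lower of which was below the floor of 69.6. Every ozone array was above every air array, which held for 2.01% of all probe sets tested. The mean log2 effect was 1.60 (SE 0.29, limma, adjusted p = 0.194). Mice have a near-identical second kininogen gene, so this signal cannot be given to Kng1 with certainty. F13b, the carrier subunit of factor XIII, was likewise higher on every ozone array than on every air array, at low intensity, with a mean effect of 0.89 (SE 0.24, adjusted p = 0.340).

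Fga, the fibrinogen alpha chain, was 119 and 177 in C3H-HeOuJ in ozone, against 44.3 and 55.4 in C3H-HeOuJ in air, both below the floor, which makes it at least 2.08-fold higher there (limma, adjusted p = 0.204). Kng1, F13b and Fga are made mainly in liver, and the 5 measured hepatocyte markers summed to 537 to 885 on the 8 arrays, with Apoa1 below the floor on all. Of 5 hepatocyte probe sets tested, 3 were higher and 2 lower both for ozone in C3H-HeOuJ (median 0.39) and between substrains in ozone (median 0.56), none called, and their part in these values was not tested. Of all probe sets tested, 51.9% and 52.1% were higher in these comparisons. Tfpi2, a relative of Tfpi, was 179 and 166 in C3H-HeJ in ozone, against 35.5 and 61.7 in C3H-HeJ in air, both below the floor. Its log2 effect there was 1.31 (SE 0.50) and was not called. In C3H-HeOuJ, Tfpi2 was 356 and 128 in ozone, against 183 and 278 in air, a log2 effect of -0.08 (SE 0.50). Ggcx, the vitamin K-dependent carboxylase, had a log2 effect of 0.83 in C3H-HeJ (SE 0.42, adjusted p = 1). Gas6, a vitamin K-dependent ligand of TAM receptors, had a log2 effect of 0.48 in C3H-HeOuJ (SE 0.18, adjusted p = 0.261).

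Plg, the precursor of plasmin, was 122 and 140 on 161626_f_at in C3H-HeOuJ in ozone, against 462 and 293 in C3H-HeOuJ in air, a log2 difference of -1.50 (SE 0.35, limma, adjusted p = 0.104). Its other probe set, 101985_at, read 261 and 63.5 in ozone, against 226 and 185 in air in that substrain, so the arrays overlapped there. Lrp1, a receptor that clears activator and inhibitor complexes, had a mean log2 effect of -0.49 (SE 0.16, adjusted p = 0.417), and the 4 ozone arrays overlapped with the 4 air arrays.

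Between substrains, the factor VII gene F7, the partner of tissue factor, was 1120 and 1059 in C3H-HeOuJ in ozone and 760 and 899 in C3H-HeOuJ in air on 92918_at. Values in C3H-HeJ were 628 and 581 in ozone and 643 and 607 in air. All 4 C3H-HeOuJ arrays were above all 4 C3H-HeJ arrays, which held for 2.7% of all probe sets tested. The mean log2 difference was 0.63 (SE 0.13, limma, adjusted p = 0.122), whereas the other F7 probe set, 161458_at, differed by 0.12 (adjusted p = 0.673). The thrombin receptor F2r differed by 1.05 on 95313_at, 0.82 on 92267_at and 0.14 on 95474_at, with adjusted p of 0.183, 0.196 and 0.642. Entpd1, an ectonucleotidase that limits platelet activation, differed by 0.74 (SE 0.22, adjusted p = 0.213) and Vwf, the platelet-binding protein of endothelium, by -0.43 (SE 0.10, adjusted p = 0.141). Platelet markers, 4 of 8 genes measured, summed to 559 to 1101 over the arrays.

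**Figure D4:**
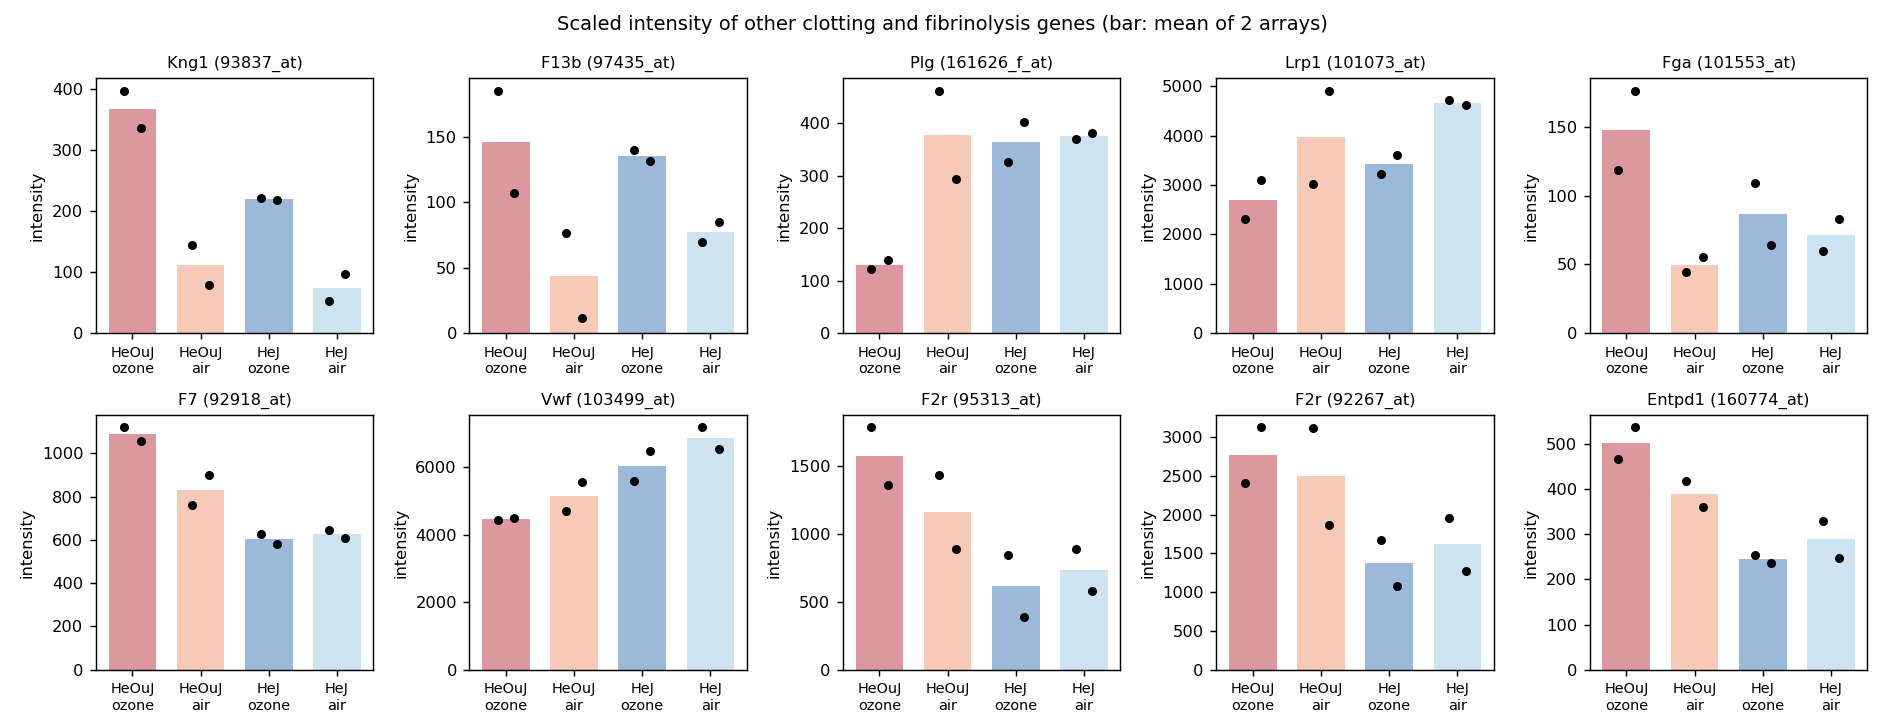
Scaled intensity of the 10 pathway probe sets with the smallest p for the mean ozone effect (upper row) or the mean substrain difference (lower row), 5 each, with points for the arrays and bars for the mean of the 2 arrays of a group. Kng1 is higher on all 4 ozone arrays than on all 4 air arrays, and F7 on 92918_at is higher on all 4 C3H-HeOuJ arrays than on all 4 C3H-HeJ arrays. These patterns held for 2.01% and 2.7% of all probe sets tested.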

How the data were processed

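Each probe set has 1 deposited intensity for an array, and these are linear values. Their 2% trimmed mean was nearly equal in all arrays, so the authors' intensity values had been scaled before deposit, with software not given in the sources used here. Names come from GEO's platform annotation of 2016, in which 10833 probe sets have 1 gene, 396 have several and 1193 have none. Values under the 20th percentile of all values (69.6) were raised to it, log2 was taken, and 10953 of 12422 probe sets that exceeded this floor on 2 or more of the 8 arrays entered the tests. A model of 4 group means was fitted with limma 3.58.1 (R 4.3.3) with an intensity trend in the prior variance and 4 residual degrees of freedom, and the threshold of 0.05 applied to Benjamini-Hochberg adjusted p over all of these probe sets. Fold changes of probe sets near the floor are understated. The fit was tested on simulated data.

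The members, the pathway lists (49 genes) and the marker lists were chosen with earlier results of these data known. Every member is named, and of the pathway the 5 probe sets of smallest p in each of 5 of the 7 comparisons (all but the substrain difference within air and within ozone), plus any that were called. The correlation of same-lettered arrays' deviations from their group means was between -0.01 and 0.138 over pairs of groups, so 1a and 1b were not treated as pairs. Promoter sequences are those of RefSeq (GRCm38.p6), and 4 of the 7 measured genes were in the table used. The number of arrays, 2 per group, limits the precision.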

Additional observations from a re-analysis of the deposited data

Results flagged for a closer look

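In 5 probe sets of the members and the pathway, ozone and air arrays did not overlap and differed in opposite directions in the 2 substrains, a pattern that 8.11% of all probe sets tested had. For F3 the ozone effect in C3H-HeOuJ minus that in C3H-HeJ was 0.87 (log2, limma, adjusted p = 0.236). It was 0.42 for Mcfd2, a cargo receptor for factors V and VIII (adjusted p = 0.433), and 0.47 for F7 on 161458_at (adjusted p = 0.446). It was -0.53 for Pros1, the cofactor protein S (adjusted p = 0.479), and -0.45 for F2r on 95474_at (adjusted p = 0.495). None of these differences passed the threshold in limma.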

How the results depend on the processing

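The 1 call, F3 between substrains in ozone, did not hold under every alternative. The number of members called was 1 as reported. It was 0 with median centring and with no filter on dim probe sets (adjusted p of F3 0.0568 and 0.0778 in limma). It was also 0 with no intensity trend, when only the compared groups were fitted and with the 5′/3′ covariate (0.129, 0.179 and 0.983 in limma). It ranged from 0 to 0 when each array was left out in turn. It stayed at 1 with quantile normalisation (adjusted p = 0.0461), a floor at the 10th or 30th percentile (0.0436 and 0.0432), a filter on mean intensity (0.0212) and array letter as a replicate block (0.0464). In the other 6 comparisons 0 members were called under every alternative run, the replicate block included, which called 185 of all probe sets in the ozone comparison of substrains, against 107 without it. The letters share only a name, so the block is no evidence of pairing. In the 3 comparisons that use all arrays, fitting the compared groups alone equals the fit reported and was not run.

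The 5′/3′ covariate was highest on the C3H-HeOuJ ozone arrays, so its fit cannot fully separate it from that group. With it, 104601_at of Thbd turned to 0.34 for ozone in C3H-HeOuJ and Procr to -0.37 for the substrains in ozone. Plat turned to -0.0036, -0.092 and -0.048 for the substrains in air, in ozone and on average. Under the same covariate, Plau moved to -1.69 for ozone in C3H-HeOuJ, -0.95 for the mean ozone effect and -1.48 for the difference of ozone effects. For the substrains, Plau turned to -0.88 in air, -2.36 in ozone and -1.62 on average. Leaving out 1 array moved 104601_at of Thbd between -0.46 and 0.066 for ozone in C3H-HeOuJ and between -0.031 and 0.50 for the substrains in air. In both, the sign turned without array 1b of C3H-HeOuJ in air. The cause was not tested. Of 56 values of members, 28 lay beyond 1 SE of 0, and 6 of those changed sign under at least 1 alternative. The other 28 lay within 1 SE of 0, and 25 of those changed sign.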
